A study of Mus musculus with 8 samples.

Results

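The genes described here are 10 components of the glutathione and NRF2 antioxidant systems of the mouse: Nfe2l2, Keap1, Nqo1, Gclc, Gclm, Gsr, Txnrd1, Srxn1, Prdx1 and Gpx4. They were taken as a list of named genes and found by Ensembl ID through the GENCODE annotation, and all 10 were among the 19896 genes present in both expression tables. Poly(A) RNA was sequenced from E14 mouse embryonic stem cells, a pluripotent line, in 4 groups of 2 libraries each. The groups Cct5 KD and Cct7 KD expressed, under doxycycline, a short hairpin RNA from the vector pLKO-Tet on-Puro that targets Cct5 or Cct7. Both targets encode subunits of CCT, a chaperonin needed to fold cytoskeletal proteins such as actin and tubulin. The groups Cct5 KD Ctr and Cct7 KD Ctr carried the same vector without a hairpin. Every group, the controls included, went through selection with puromycin at 0.5 µg/ml over 14 days and received doxycycline at 2 µg/ml for 2 days, mostly in serum with LIF. Because positive clones were picked after selection, a group may be descended from few cells, and nothing in the labels says that the 2 libraries of a group came from separate cultures. The p-values below therefore set each difference against the spread between libraries of a group, which may be technical. They may not cover variation between cultures or clones.

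NRF2, the protein of Nfe2l2, is a transcription factor that is held at a low level because KEAP1 hands it to a ubiquitin ligase for degradation. When electrophiles or oxidants modify cysteines of KEAP1, NRF2 accumulates, pairs with a small MAF protein and binds antioxidant response elements of genes for detoxifying and reducing enzymes. GCLC and GCLM form the ligase that makes the first committed product of glutathione synthesis, and GSR returns oxidised glutathione to its reduced form. TXNRD1 reduces thioredoxin, PRDX1 is an abundant peroxiredoxin that removes peroxide, and SRXN1 repairs overoxidised peroxiredoxins. NQO1 reduces quinones, and GPX4 is the glutathione-dependent selenoenzyme that reduces lipid hydroperoxides and protects cells from ferroptosis.

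Of the 10 genes, 8 had promoter windows in RefSeq on GRCm38.p6, each running from 250 bases before to 50 bases after an annotated transcript start, 13 windows in all. The windows were searched on both strands for TGACNNNGC, the core of the antioxidant response element. The letters occurred in 12.4% of all 32851 windows of this length, and in at least 1 window of 14.0% of 27025 genes. Among the 8 genes they occurred in a window of 5, namely Nfe2l2, Gclm, Txnrd1, Srxn1 and Prdx1, once in each. No match was found in the windows of Keap1, Nqo1 and Gpx4, which says only that these letters are not in those 300 bases. Gclc and Gsr had no entry. Printed here, 5′ to 3′ on the strand of the gene with the matched letters in capitals, are the windows of the 3 genes with the largest differences in Cct7 KD and of Prdx1, which had the highest level of the 10 and a small difference. The Srxn1 window is chr2:152105274-152105573 on the plus strand, Nqo1 is chr8:107403156-107403455 on the minus strand, Txnrd1 is chr10:82858956-82859255 on the plus strand and Prdx1 is chr4:116685349-116685648 on the plus strand.
Srxn1: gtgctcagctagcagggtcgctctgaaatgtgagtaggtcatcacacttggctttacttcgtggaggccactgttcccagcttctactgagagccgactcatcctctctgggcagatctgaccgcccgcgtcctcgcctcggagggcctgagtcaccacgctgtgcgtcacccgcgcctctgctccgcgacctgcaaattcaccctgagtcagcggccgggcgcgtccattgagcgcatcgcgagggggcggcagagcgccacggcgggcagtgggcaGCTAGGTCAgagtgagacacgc
Nqo1: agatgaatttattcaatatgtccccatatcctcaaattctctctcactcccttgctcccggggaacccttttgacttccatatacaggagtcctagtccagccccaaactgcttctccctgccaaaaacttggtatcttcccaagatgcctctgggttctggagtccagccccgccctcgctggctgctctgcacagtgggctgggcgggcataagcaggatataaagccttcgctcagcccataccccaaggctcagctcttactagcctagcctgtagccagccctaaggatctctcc
Txnrd1: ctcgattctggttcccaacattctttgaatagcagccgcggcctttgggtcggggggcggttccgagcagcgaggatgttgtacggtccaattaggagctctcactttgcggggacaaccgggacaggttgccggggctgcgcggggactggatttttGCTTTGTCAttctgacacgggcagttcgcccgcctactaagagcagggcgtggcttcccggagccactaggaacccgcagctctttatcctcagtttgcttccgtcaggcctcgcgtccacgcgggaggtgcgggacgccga
Prdx1: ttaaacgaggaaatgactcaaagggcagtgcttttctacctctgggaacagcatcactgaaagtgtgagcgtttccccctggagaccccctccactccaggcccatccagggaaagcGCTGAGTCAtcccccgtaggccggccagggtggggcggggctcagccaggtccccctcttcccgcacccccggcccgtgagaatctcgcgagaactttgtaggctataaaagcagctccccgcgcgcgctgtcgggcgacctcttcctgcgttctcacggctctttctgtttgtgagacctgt
In Srxn1 the match begins 28 bases after the annotated start, on the minus strand. In Txnrd1 it begins 92 bases before the start of the second of its 3 windows, and in Prdx1 133 bases before the start, both also on the minus strand of the gene. The matches in the windows not printed lie 240 bases before the start of Nfe2l2 and 134 bases before that of Gclm. A match is a run of letters and was not tested for binding.

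Values are FPKM as deposited, that is, fragments scaled to transcript length and library total, and the number of fragments behind them could be read back from the steps between low values. In the 6 libraries where this worked, the library total used for scaling was 18885404 to 54739195 fragments. Each of the 10 genes gave whole fragments under exactly 1 annotated transcript length. The values rest on 242 fragments for Keap1 in Cct5 KD Ctr replicate 2, a counting error of 6.43%, up to 70115 for Prdx1 in Cct5 KD Ctr replicate 1, a counting error of 0.378%. The Cct5 KD values are not an independent measurement, since in both replicates each equals the same-numbered Cct7 KD value times 1.125 plus a remainder, with 449 and 427 genes exactly at that ratio and 15 genes below it, and the multiple makes up 71.3% of their total. The comparisons therefore rest on Cct7 KD, and Cct5 KD is given separately with its remainder. Cct7 fell from 275 ± 7.86 FPKM in its control to 16.1 ± 2.41 in Cct7 KD (SD, n = 2). Cct5 fell from 368 ± 0.535 to 72.1 ± 1.88 in Cct5 KD. Cct5 is itself among the genes below the ratio, at 280 and 271 FPKM in Cct7 KD against 70.8 and 73.4 in Cct5 KD. Its Cct5 KD values therefore cannot be split into the multiple and a remainder. The 10 pluripotency markers were present in all controls and all 10 were lower in Cct7 KD, where their summed level was 1045 to 1054 FPKM against 4559 to 4766. Summed over 8 trophoblast markers, of which 4 were tested and 3 were higher and 1 lower, the level was 28.5 to 29.3 FPKM in the controls and 210 to 212 in Cct7 KD. That list holds the keratin genes Krt8 and Krt18 beside Cdx2, Elf5, Eomes, Hand1, Gata3 and Plac1. Its sum can rest on few of them. Feeder or fibroblast markers summed to 10.3 to 11.1 and 12.03 to 12.64, with 1 higher and 1 lower of 2 tested and Col3a1, Dcn and Lum not in the Cct7 table. Primitive endoderm markers summed to 13.3 to 13.6 and 14.6 to 15.8, with 3 higher and 1 lower of 4 tested. In Cct5 KD, as deposited, 9 of the 10 pluripotency markers were lower and 1 higher, and they summed to 2297 to 2303 FPKM against 4675 to 4723. There the trophoblast sum was 242 to 245 against 27.5 to 28.7, with 3 higher and 1 lower of 4 tested and Cdx2 not in that table. The primitive endoderm sum was 20.9 to 22.2 against 13.1 to 13.4, with 5 of 5 tested higher, and the feeder or fibroblast sum 17.2 to 17.9 against 10.45 to 11.01, with 1 higher and 1 lower of 2 tested and Postn, Dcn and Lum not in that table. Of all tested genes, 49.3% were called higher and 32.0% lower in Cct7 KD, and 78.0% and 11.3% in Cct5 KD. The median difference of all genes in Cct5 KD was 0.68 on the log2 scale, so a higher call there sets no marker apart. Hprt, a purine salvage enzyme whose gene is deleted in some E14 sublines, was at 159 to 163 FPKM in the 4 controls and 0.781 to 1.44 in the 4 knockdown libraries. Knockdown and a difference in the origin of the lines cannot be told apart in this design, and the part of the marker changes in the results below was not tested.

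In Cct7 KD, Srxn1, Nqo1 and Txnrd1 rose 10.3-fold, 6.92-fold and 2.73-fold. Keap1 rose 2.13-fold, Gsr, Gclc, Nfe2l2 and Gclm rose 1.33-fold to 1.5-fold, and the 2 most abundant genes, Prdx1 and Gpx4, stood at 1.08 and 0.932 times their controls. All 10 genes passed the filter of a mean of 1 FPKM. By limma on log2(FPKM + 1), with p-values adjusted over all 13588 genes tested, 9 of the 10 genes were called higher and 1 lower. That has to be read against a background in which 81.4% of all tested genes were called, 49.3% higher and 32.0% lower, so that a call alone sets no gene apart. The same 9 genes had both knockdown libraries above both controls, as did 54.1% of all genes, and the other gene had both below, as did 36.5%. At least 2-fold on this scale, which understates changes of low genes and leaves Keap1 just under, were 3 of the 10 genes, all higher, against 20.1% of all genes, 13.5% higher and 6.6% lower. The median difference of the 10 genes was 0.54 and that of all genes 0.15 on the log2 scale. Median-of-ratios scaling, which sets the typical gene to about no change, moved the median of all genes to -0.07 and that of the 10 genes to 0.29. Under it 8 of the 10 genes were called higher and 2 lower, among 81.0% of all genes called, 37.1% higher and 44.0% lower. In bulk RNA, a change in the share of cells of one kind and a change in RNA per cell cannot be told apart.

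**Figure D1:**
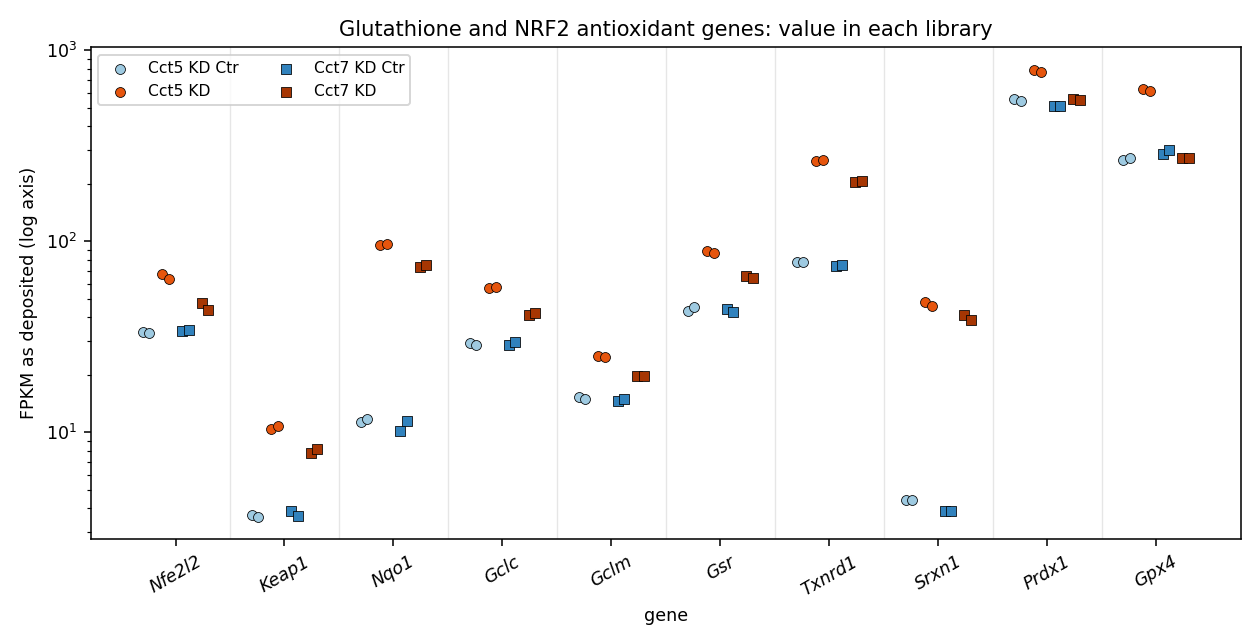
Deposited FPKM of the 10 genes in each of the 8 libraries, on a log axis, with 1 point per library and the 4 groups side by side. The Cct7 KD points of Srxn1 (41.0 and 38.8) stand about an order of magnitude above their controls (3.88 and 3.86), while those of Gpx4 (273 and 273) lie just under theirs (285 and 301).

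The difference of the regulator itself was small beside those of Nqo1, Txnrd1 and Srxn1. Nfe2l2, on chromosome 2 (75675513 to 75704641, minus strand, GRCm38), measured 33.9 and 34.2 FPKM in the Cct7 KD Ctr libraries and 47.6 and 43.6 in Cct7 KD. Both knockdown libraries lay above both controls, and they differed from each other more than the controls did. The difference was 0.41 ± 0.0469 on the log2 scale (SE, adjusted p = 0.000497) and 0.16 after median-of-ratios scaling (adjusted p = 0.0269). Keap1, which encodes the adaptor that targets NRF2 for degradation, measured 3.86 and 3.65 FPKM in the controls and 7.83 and 8.17 in Cct7 KD. The groups did not overlap, and the difference was 0.92 ± 0.0587 (adjusted p = 4.73e-05), or 0.71 after scaling. Messenger RNA levels of Nfe2l2 and Keap1 do not measure NRF2 protein, which is controlled mainly by its degradation.

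Nqo1, on chromosome 8 (107388225 to 107403206, minus strand), had the next to largest difference of the 10 genes. It measured 10.1 and 11.4 FPKM in the Cct7 KD Ctr libraries and 73.7 and 75.4 in Cct7 KD, from 352 and 413 fragments in the controls and 2378 and 2210 in the knockdown. The gap between the groups was far wider than the spread within either. The difference was 2.68 ± 0.0566 (adjusted p = 2.19e-06) and 2.44 after scaling, which placed Nqo1 at rank 87 of 13588 genes ordered from the largest rise.

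The genes of glutathione synthesis and recycling rose by similar, small amounts. Gclc, the catalytic subunit of the ligase, measured 28.6 and 29.6 FPKM in the controls and 41.1 and 42.1 in Cct7 KD, a difference of 0.50 ± 0.0325 (adjusted p = 5.05e-05). Gclm, its modifier subunit, measured 14.6 and 14.9 against 19.6 and 19.6, a difference of 0.39 ± 0.0346 (adjusted p = 0.000173). Gsr, glutathione reductase, measured 44.2 and 42.7 against 65.9 and 64.1, a difference of 0.57 ± 0.0316 (adjusted p = 2.88e-05). No knockdown library of these 3 genes overlapped a control, and 54.1% of all genes likewise lay above both controls. After median-of-ratios scaling the differences were 0.26, 0.15 and 0.32, all still called higher, as were 37.1% of all genes. Ordered from the largest rise as deposited, Gclc, Gclm and Gsr stood at ranks 4299, 5053 and 3846 of 13588 genes.

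In the thioredoxin branch the reductase and the repair enzyme rose several-fold and the peroxiredoxin hardly differed. Txnrd1, on chromosome 10 (82833951 to 82897712, plus strand), measured 74.3 and 75.5 FPKM in the controls and 203 and 206 in Cct7 KD. Its difference was 1.44 ± 0.0250 (adjusted p = 1.45e-06) and 1.19 after scaling, rank 821 from the top. Srxn1, on chromosome 2 (152105516 to 152111376, plus strand), measured 3.88 and 3.86 FPKM in the controls, from 244 and 253 fragments, and 41.0 and 38.8 in Cct7 KD, from 2393 and 2060. This was the largest difference of the 10 genes, 3.07 ± 0.0441 (adjusted p = 1.16e-06), and stood at rank 49 of all genes tested, with 2.84 after scaling. Prdx1, on chromosome 4 (116685544 to 116700822, plus strand), encodes a peroxiredoxin of the class that SRXN1 repairs. It measured 509 and 513 FPKM in the controls and 559 and 547 in Cct7 KD. Although the groups did not overlap, the difference was only 0.11 ± 0.0278 (adjusted p = 0.0115) as deposited and -0.14 after median-of-ratios scaling (adjusted p = 0.00843), so its direction depends on the scaling. Without Cct7 KD replicate 1 or replicate 2 the adjusted p was 0.104 or 0.0513, with the remaining library assumed to vary like the controls.

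Gpx4, on chromosome 10 (80047166 to 80056439, plus strand), was the only one of the 10 genes lower in Cct7 KD as deposited. It measured 285 and 301 FPKM in the controls and 273 and 273 in Cct7 KD. The knockdown libraries were nearly equal and lay just under the lower control. The difference was -0.10 ± 0.0337 (adjusted p = 0.0362) and -0.35 after median-of-ratios scaling (adjusted p = 0.00032). The call was lost after scaling to a common total, where the difference was -0.037 (adjusted p = 0.263), and without Cct7 KD Ctr replicate 2, where it was -0.062 (adjusted p = 0.0998). It was also lost without Cct7 KD replicate 1 or replicate 2, at -0.10 in both cases (adjusted p = 0.122 and 0.132). Gpx4 has a listed pseudogene, Gpx4-ps2, at 6.18 and 7.73 FPKM in the controls and 6.28 and 4.94 in Cct7 KD. How reads shared between such copies were assigned is not known here.

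**Figure D2:**
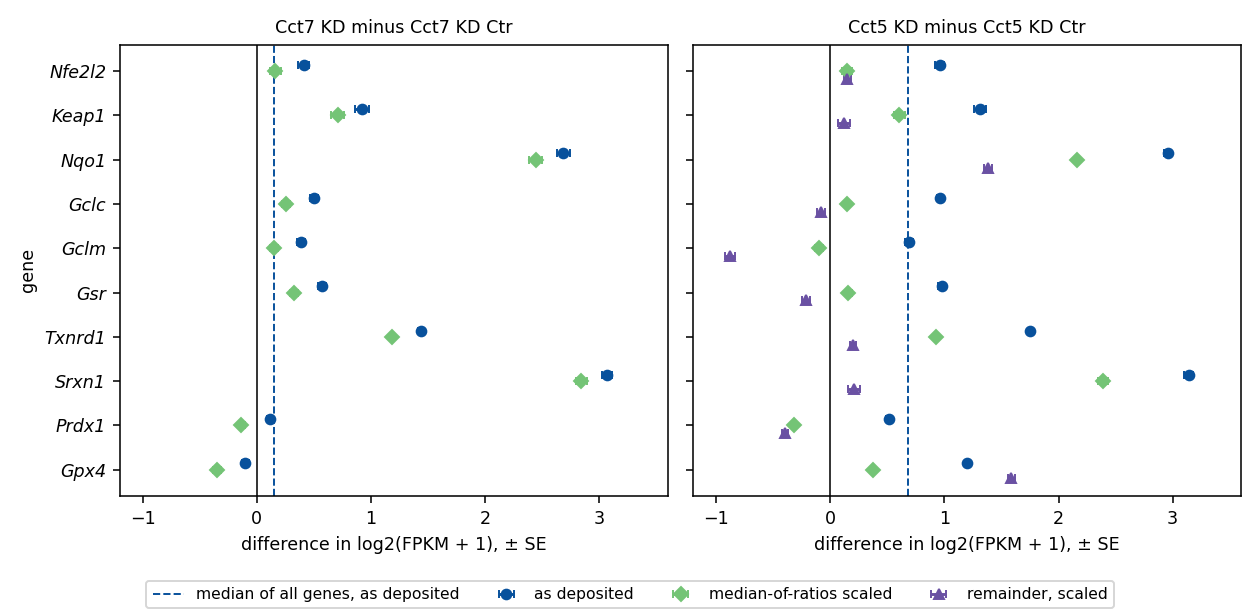
Difference of each gene from its own control in log2(FPKM + 1), with bars of 1 SE, for Cct7 KD on the left and Cct5 KD on the right, as deposited (circles), after median-of-ratios scaling (diamonds) and, on the right, for the scaled remainder of Cct5 KD (triangles). The dashed line is the median of all tested genes as deposited, 0.15 on the left and 0.68 on the right, and Prdx1 crosses 0 with scaling in both panels.

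FPKM is a value per length, so levels can be set side by side between genes, each on the transcript length its values imply. In Cct7 KD Ctr the order from the highest mean was Prdx1, Gpx4, Txnrd1, Gsr, Nfe2l2, Gclc, Gclm, Nqo1, Srxn1 and Keap1. The means ran from 511 ± 3.03 FPKM for Prdx1 to 3.75 ± 0.150 for Keap1 (SD, n = 2). Srxn1 and Keap1 overlapped, and all other neighbours in the order were apart in these libraries. In Cct7 KD the first 3 and the last kept their places, Nqo1 (74.5 ± 1.18) stood above Gsr (65.0 ± 1.27), and Srxn1 (39.9 ± 1.53) stood above Gclm (19.6 ± 0.0127) and under Gclc (41.6 ± 0.728). With 2 libraries a group, the order of Nfe2l2, Gclc and Srxn1 in Cct7 KD rests on gaps close to their spread.

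In Cct5 KD all 10 genes were called higher than Cct5 KD Ctr as deposited, where 89.3% of all 14179 tested genes were called, 78.0% higher and 11.3% lower. All 10 lay above both controls, as did 81.0% of all genes, and 5 were at least 2-fold higher, where 33.3% of all genes passed that fold and 31.2% passed it upward. The deposited FPKM summed over genes to 745912 and 744177 in the Cct5 KD libraries, against 495553 and 496684 in Cct5 KD Ctr. The median difference of all genes was 0.68 on the log2 scale, so the differences as deposited include a rise of the typical gene. After median-of-ratios scaling 8 of the 10 were called higher and 2 lower, with 81.4% of all genes called, 37.7% higher and 43.7% lower. Srxn1 measured 4.42 and 4.44 FPKM in Cct5 KD Ctr and 48.2 and 45.7 in Cct5 KD, a difference of 3.14 ± 0.0405 (adjusted p = 2.52e-07) and 2.39 after scaling. Nqo1 measured 11.4 and 11.7 against 95.5 and 97.3, with differences of 2.96 and 2.16. Txnrd1 measured 78.1 and 77.7 against 263 and 266, with differences of 1.75 and 0.93. Keap1, the repressor, measured 3.71 and 3.62 against 10.4 and 10.8 FPKM, with differences of 1.31 and 0.60. These 4 genes kept a rise under both scalings. Most of each of their Cct5 KD values was the multiple of Cct7 KD, so this rise was not measured apart from Cct7 KD. The multiple made up 87.0% and 86.9% of the Txnrd1 values and 84.8% and 85.2% of the Keap1 values. Nfe2l2, Gclc and Gsr had differences of 0.96 to 0.97 as deposited and 0.15 to 0.16 after scaling. Gclm went from 0.69 to -0.10 and Prdx1 from 0.51 to -0.32 with scaling, so their directions depend on it. Gpx4, whose 2 control libraries measured 265 and 273 FPKM, stood at 625 and 615 in Cct5 KD, a difference of 1.20 ± 0.0229 (adjusted p = 4.71e-07) and 0.37 after scaling (adjusted p = 4.29e-05). Its pseudogene Gpx4-ps2 measured 5.56 and 4.88 FPKM in Cct5 KD Ctr and 14.5 and 11.8 in Cct5 KD. As deposited it was 2.52-fold higher, where Gpx4 was 2.30-fold higher.

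The multiple of Cct7 KD contained in each Cct5 KD value was not the same share for every gene. It made up 95.6% of the Srxn1 value in both replicates, 88.3% and 88.7% for Gclm, 86.8% and 87.1% for Nqo1, and 49.2% and 49.9% for Gpx4, beside 71.3% of the whole total. In FPKM, the Srxn1 value of 48.2 in Cct5 KD replicate 1 consisted of 46.1 from the multiple and 2.12 from the remainder. The Gpx4 value of 625 in the same library consisted of 307 from the multiple and 318 from the remainder. Of the 10 genes, Gpx4 was the only one for which the multiple was under the share in the whole total.

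**Figure D3:**
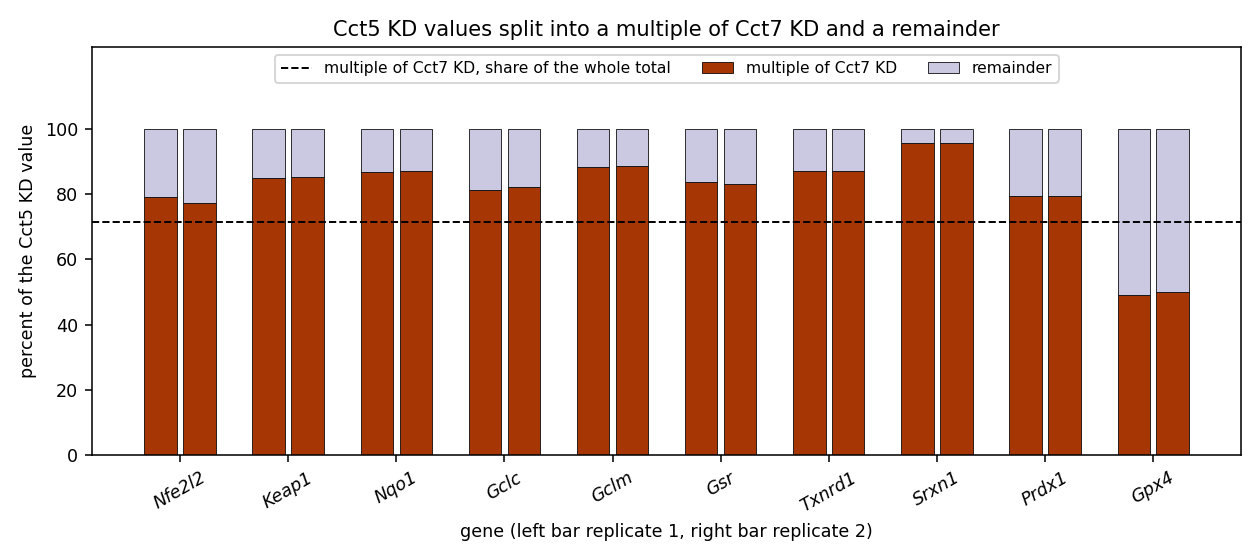
Percent of each Cct5 KD value that is the multiple of same-numbered Cct7 KD (dark) and the remainder (light), with replicate 1 on the left and replicate 2 on the right of each pair of bars. The dashed line marks the share in the whole total, 71.3%, and the Gpx4 bars (49.2% and 49.9%) end under it.

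The remainder was compared with Cct5 KD Ctr after median-of-ratios scaling, which it needs because its own scale is arbitrary. By limma 5 of the 10 genes were called higher, 3 lower and 2 neither way, among 11688 genes of which 84.9% were called, 41.6% higher and 43.3% lower. Gpx4 had the largest difference, 1.59 ± 0.0292 (adjusted p = 2.3e-07), from remainders of 318 and 308 FPKM before scaling against 265 and 273 in the controls. It stood at rank 215 of the genes tested. Nqo1 followed with 1.38 ± 0.0341 (adjusted p = 4.28e-07), from remainders of 12.6 and 12.5 FPKM against 11.4 and 11.7. Srxn1 and Txnrd1, which led with Nqo1 in Cct7 KD, differed by 0.21 ± 0.0517 (adjusted p = 0.00909) and 0.20 ± 0.0232 (adjusted p = 0.000281). Nfe2l2 differed by 0.15 (adjusted p = 0.0025). Gclm was lowest, at -0.88 ± 0.0418 (adjusted p = 4.38e-06), from remainders of 2.92 and 2.82 FPKM against 15.3 and 14.9, while its partner Gclc was at -0.08 (adjusted p = 0.0724) and Keap1 at 0.12 (adjusted p = 0.0642). Prdx1 was at -0.40 (adjusted p = 3.21e-05) and Gsr at -0.21 (adjusted p = 0.000956). What the remainder represents is not stated in the labels, so these values describe the deposited numbers and are not a second knockdown experiment.

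The 2 sets of empty-vector cells give the size of differences between control cells without a hairpin. Hprt was at 159 to 163 FPKM in all controls and at 0.781 to 1.44 in the knockdown libraries. The comparison of controls therefore cannot contain a difference in origin between control and knockdown lines. Between Cct5 KD Ctr and Cct7 KD Ctr, limma called 0 of 12762 genes (0.0%), with 2296 at an unadjusted p under 0.05, and 0 with 2307 after median-of-ratios scaling. Without Cct7 KD Ctr replicate 1 it called 103 genes, and without Cct7 KD Ctr replicate 2 it called 19. The differences of the 10 genes ran from -0.12 for Gpx4, at 265 and 273 against 285 and 301 FPKM, to 0.16 for Srxn1, at 4.42 and 4.44 against 3.88 and 3.86. Neither was called (adjusted p = 0.196 and 0.24). The Gpx4 difference between the controls was thus as large as its difference in Cct7 KD as deposited, and the Srxn1 difference was small beside the 3.07 of Cct7 KD.

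Beyond the 10 genes, 8 lists of related function held 107 genes, of which 105 were in the tables and 100 were tested in the Cct7 KD fit. Their counts are given as deposited first and after median-of-ratios scaling second. Among all genes, 49.3% were higher and 32.0% lower as deposited, with a median of 0.15, and 37.1% higher and 44.0% lower after scaling, with a median of -0.07. A count near those shares is no result about a list. Of the 100 genes, 4 passed the filter of 1 FPKM only through the group where they were high, namely Slc7a11, Ggt7, Cbs and Aldh3a1, so their calls support nothing about their lists. Of 13 tested partners and regulators of NRF2, 8 were higher and 3 lower (7 and 5 after scaling), with a median of 0.39 (0.15 after scaling), beside all-gene medians of 0.15 and -0.07. Maff, a small MAF protein, rose from 4.85 and 5.54 to 15.2 and 14.7 FPKM, a difference of 1.36 (1.14 after scaling). Gsk3b, a kinase that marks NRF2 for a degradation route independent of KEAP1, rose 2.34-fold. Sqstm1, the p62 protein that binds KEAP1 and is itself an NRF2 target, rose from 81.3 and 83.1 to 128 and 133 FPKM. Nfe2, a relative of NRF2, rose 2.21-fold from a low level.

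In the list for glutathione supply and turnover, 6 of 12 genes were higher and 6 lower (3 and 6 after scaling), where 49.3% of all genes were higher and 32.0% lower (37.1% and 44.0% after scaling), and 2 of the 6 higher genes and 1 of the lower are among the 4 named above. Chac1, which breaks glutathione down, rose from 1.23 and 1.39 to 10.4 and 10.4 FPKM, a difference of 2.30 (2.11 after scaling). Cbs, the first enzyme of transsulfuration, measured 4.58 and 4.36 FPKM in the controls and 0.835 and 0.893 in Cct7 KD. Ggct, which acts in glutathione breakdown, fell to 0.486 of its control level. Slc3a2, the heavy chain of the cystine importer, measured 70.2 and 69.3 FPKM in the controls and 46.8 and 49.3 in Cct7 KD, a difference of -0.53 (-0.78 after scaling). Slc7a11, the transporting light chain, fell outside the rule for named genes through its low level and was chosen after its values were seen. It measured 0.129 and 0.0887 FPKM in the controls and 2.75 and 2.74 in Cct7 KD, and these levels are a description with no test. Slc3a2 also pairs with other amino acid transporters.

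Among 23 tested enzymes that use glutathione, 12 were higher and 8 lower (9 and 9 after scaling), close to the shares of all genes, 49.3% and 32.0% (37.1% and 44.0% after scaling). Gpx8, a peroxidase of the endoplasmic reticulum, rose from 2.15 and 1.61 to 10.85 and 10.01 FPKM, and Glo1, the glyoxalase that clears methylglyoxal, from 84.0 and 86.5 to 223 and 215. Mgst1, a microsomal transferase that also reduces lipid peroxides, rose 2.11-fold, with 4.29 and 5.72 FPKM in the knockdown libraries. Gsta3, a glutathione transferase, fell from 5.31 and 5.03 to 1.92 and 1.96. Of 13 thioredoxins, peroxiredoxins and related genes, 8 were higher and 3 lower (5 and 4 after scaling), beside the same shares of all genes. Sesn3, a sestrin, rose 2.25-fold, Prdx4, the peroxiredoxin of the endoplasmic reticulum, rose 1.55-fold, and Prdx5 rose 1.43-fold. Txn2, the mitochondrial thioredoxin, fell from 51.4 and 49.7 to 36.7 and 36.6 FPKM.

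Of 18 tested other genes known as NRF2 targets, 6 were higher and 9 lower (5 and 12 after scaling), where 49.3% of all genes were higher and 32.0% lower (37.1% and 44.0% after scaling). One of the lower genes, Aldh3a1, passed the filter only through the controls. Its mean was 3.42 FPKM in the controls and 0.252 in Cct7 KD, a description with no test. Ugdh, which makes the sugar acid for glucuronidation, rose from 9.61 and 10.3 to 36.7 and 36.8 FPKM, and Me1, a source of NADPH, from 17.4 and 18.1 to 53.5 and 51.9. Hmox1, the inducible heme oxygenase, was chosen after its values were seen and measured 46.3 and 45.8 against 117 and 119 FPKM, a difference of 1.34 (1.09 after scaling). Cbr3, a carbonyl reductase, fell from 16.4 and 15.9 to 5.80 and 5.20 FPKM. Ftl1, the ferritin light chain, measured 1085 and 1137 against 393 and 411 FPKM, a difference of -1.46. The Ftl1 value is uncertain, because the pseudogene Ftl2-ps was listed at 0 in the controls and at 183 and 158 FPKM in Cct7 KD, and reads could be divided between the copies.

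Of 4 tested superoxide dismutases and catalase genes, 1 was higher and 2 lower (1 and 3 after scaling), too few to set beside the 49.3% higher and 32.0% lower of all genes (37.1% and 44.0% after scaling). Catalase (Cat) rose from 28.4 and 27.9 to 44.4 and 46.8 FPKM, and the mitochondrial dismutase Sod2 fell from 24.5 and 25.4 to 17.0 and 16.4. Sod1, the cytosolic dismutase, measured 83.3 and 90.1 against 77.3 and 75.7, a difference of -0.18 (adjusted p = 0.0109) that was not called without Cct7 KD replicate 2 (adjusted p = 0.0523). GPX4 and TXNRD1 contain selenocysteine, and of 8 genes for selenoprotein synthesis 3 were higher and 4 lower (2 and 5 after scaling), beside those shares. Secisbp2, which binds the selenocysteine insertion element, fell from 14.9 and 14.7 to 9.17 and 8.66 FPKM, and Sephs2, which makes the selenium donor, from 42.9 and 42.8 to 29.9 and 29.8. Sepsecs, which converts the loaded tRNA, rose 1.43-fold, and Trnau1ap rose 1.33-fold.

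Of 9 tested genes of lipid peroxidation and ferroptosis, 7 were higher and 1 lower under both scalings. Among all genes, 49.3% were higher and 32.0% lower as deposited, and 37.1% and 44.0% after scaling. The median of the 9 genes was 0.77 as deposited and 0.53 after scaling, beside 0.15 and -0.07 for all genes. The list joins genes of differing roles, so a shared direction has no single meaning. Lpcat3, which places polyunsaturated chains in phospholipids, rose from 13.8 and 14.8 to 31.1 and 31.8 FPKM. Gch1, the first enzyme of tetrahydrobiopterin synthesis, rose 2.77-fold, and Aifm2 (FSP1), which regenerates reduced coenzyme Q beside GPX4, rose from 9.12 and 9.28 to 16.7 and 16.8. Dhodh, a mitochondrial enzyme of pyrimidine synthesis that also reduces coenzyme Q, fell from 38.4 and 38.9 to 9.25 and 8.75 FPKM, a difference of -1.99 (-2.22 after scaling). Each gene of these lists said to have risen or fallen passed the test under both scalings, with Sod1 the highest adjusted p as deposited.

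**Figure D4:**
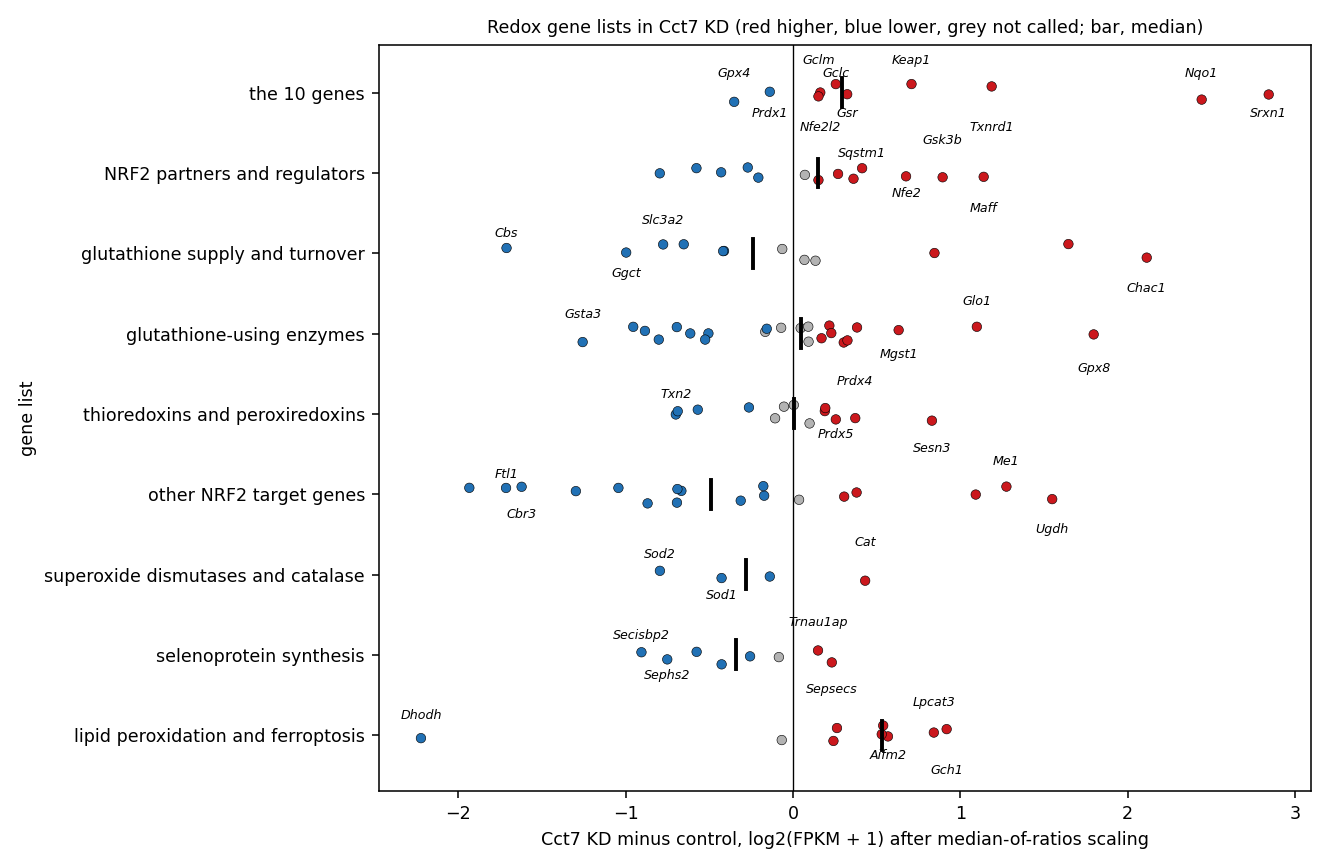
Difference of each tested gene from its control in Cct7 KD, in log2(FPKM + 1) after median-of-ratios scaling, for the 10 genes and the 8 related lists, with red points called higher, blue points called lower, grey points not called and a bar at each list's median. Srxn1 (2.84), Nqo1 (2.44) and Chac1 (2.11) stand farthest to the right, and Dhodh (-2.22) farthest to the left.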

How the data were processed

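The values are FPKM of each gene, which the authors deposited as a separate table for Cct5 and for Cct7. Per the submitters' processing notes, HTSeq and the mm10 assembly were used. Versions, aligner, annotation and gene lengths are not stated there. The 10 genes, the 8 related lists and the 4 marker lists were chosen with earlier results of these data known.

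IDs were matched to GENCODE symbols on GRCm38, the assembly also called mm10. IDs present 2 times (8 and 6 per table) were left out. Fragment numbers were read back where low FPKM values were whole multiples of a step within 0.05 of a fragment. This held for 98.9% of 19870 genes with an annotated length. Cct5 KD gave no depth. Counting errors cover sampling of fragments only. Replicates differed beyond counting error (chi-square per degree of freedom 1.38 to 4.99), so they were kept as 2 samples.

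Genes with a mean of 1 FPKM or more were tested with limma 3.58.1 (eBayes, mean trend) in R 4.3.3, on log2 of FPKM plus a pseudocount of 1, each knockdown against its own control. A Benjamini-Hochberg adjusted p under 0.05 over all genes was a call. The procedure was run on simulated data with independent noise in which few genes changed. Most genes were called in the real comparisons, so that check does not cover their setting. To form the remainder, 1.125 times the same-numbered Cct7 KD value was taken from Cct5 KD. It was not formed for the 15 genes where it would be negative.

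Named genes of a related list were up to 4 with the largest absolute change among those called in Cct7 KD with a mean of at least 2 FPKM and groups that did not overlap. The alternatives were median-of-ratios scaling, a common total, no filter, a 0.1 pseudocount, a minimum fold of 2, all 8 libraries in 1 fit, a replicate block and leaving out each library. Gsta1 and Sod3 were not in the tables. Promoter sequences came from RefSeq on GRCm38.p6.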

Additional observations from a re-analysis of the deposited data

Results flagged for a closer look

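Gpx4 moved opposite ways in the knockdowns as deposited. Both Cct7 KD libraries lay under their controls, with a difference of -0.10 on the log2 scale, and both Cct5 KD libraries lay above theirs, with a difference of 1.20. The difference between the knockdowns was not tested, because each Cct5 KD value contains a multiple of the Cct7 KD value. The Cct5 KD control libraries measured 265 and 273 FPKM. The remainders were 318 and 308 before scaling, on an arbitrary scale that cannot be set directly beside the controls. As deposited, the median of all genes was 0.15 in Cct7 KD and 0.68 in Cct5 KD. After median-of-ratios scaling the Gpx4 differences were -0.35 in Cct7 KD and 0.37 in Cct5 KD. Gpx4 differed by -0.12 between the 2 control groups, and its Cct7 KD call was lost with a common total (-0.037).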

How the results depend on the processing

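Among all genes in Cct7 KD, 81.4% were called as deposited and 81.0% after median-of-ratios scaling, so a kept call alone sets no gene apart. The share of all genes that kept theirs under every alternative was not counted. Among the alternatives, the fit of all 8 libraries took Cct5 KD and Cct7 KD as independent, which they are not, so it adds no support. In Cct7 KD, 8 of the 10 genes kept their direction and call under every alternative that was run, apart from the minimum fold. The exceptions were Prdx1, at -0.14 with median-of-ratios scaling and not called under 2 alternatives, and Gpx4, which kept its direction and was not called under 5. The count of the 10 genes called lower, 1 as reported, was 2 with median-of-ratios scaling, 0 with a common total, 0 with the replicate block, and 0 to 1 with a library left out. With a fold of at least 2, 3 of the 10 genes remained called, 3 higher and 0 lower, and 2734 genes in all. In Cct5 KD a fold of at least 2 left 5 called, 5 higher, and 4724 genes in all. The count called lower there, 0 as reported, was 2 with median-of-ratios scaling, 1 with a common total and 3 in the remainder, where 5 were higher. Reversed in Cct5 KD were Gclm (-0.10) and Prdx1 (-0.32) with median-of-ratios scaling, Prdx1 with a common total (-0.076), and Gclc (-0.082), Gclm (-0.88), Gsr (-0.21) and Prdx1 (-0.40) in the remainder. The cause was not tested. Between the controls, leaving out a library gave 0 to 103 calls.

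Knockdown and control libraries share only a replicate number. Between Cct5 KD and Cct7 KD, the deviations of same-numbered libraries correlated at 0.93 over 14242 genes. Between knockdown and control they correlated at -0.04 in the Cct7 KD comparison and -0.01 in Cct5 KD over genes. With the replicate number as a block, the count of genes called went from 11055 to 10968 in Cct7 KD, from 12662 to 12740 in Cct5 KD, from 9923 to 9872 in the remainder and stayed at 0 between the controls. In the remainder, where that correlation was -0.13, the crossed pairing gave 9993, and it was added after seeing the data. Gpx4 in Cct7 KD had an adjusted p of 0.0518 under the block. Depth limits the precision most for Keap1 and Srxn1 in the controls, and fold changes of low genes are understated on the log2(FPKM + 1) scale.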
